A study of Mus musculus with 4 samples.

Results

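The clustered protocadherins formed 57 of the 31053 genes counted in primary cortical neurons, with 14 genes in the alpha cluster, 22 in the beta cluster and 21 in the gamma cluster. The rule takes protein-coding genes whose GENCODE M21 symbol starts with Pcdha, Pcdhb or Pcdhg followed by an isoform letter or number, and it uses names and no measured value. All lie on the plus strand of chromosome 18 in mm10, where the alpha cluster spans chr18:36930184-37187661, the beta cluster chr18:37264938-37524479 and the gamma cluster chr18:37661793-37841873. Symbol Pcdha11 belongs to 2 gene IDs, ENSMUSG00000007440 and ENSMUSG00000102206, and RefSeq places Pcdha10 at the first of them, so both are given by ID.

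Clustered protocadherins are cadherin-like proteins of the neuronal surface that bind the same isoform on the facing membrane, and they are known for self-avoidance of the branches of a single neuron. In the alpha and gamma clusters each isoform gene contributes its own large first exon and promoter, spliced to constant exons that all isoforms of the cluster share. Beta genes consist of a single coding exon and use no constant exons. The alternate isoforms are switched on in varying combinations from neuron to neuron, whereas the C-type isoforms at the end of the alpha and gamma clusters (Pcdhac1, Pcdhac2, Pcdhgc3, Pcdhgc4 and Pcdhgc5) follow other rules of promoter use.

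The study used enhanced crosslinking and immunoprecipitation (eCLIP), in which RNA crosslinked to a protein is trimmed with RNase I, pulled down with an antibody and sequenced, to benchmark a reporter of ribosome occupancy. The antibody was against endogenous RPS2, which belongs to the small subunit of the ribosome, so the immunoprecipitate (IP) holds RNA bound by that subunit. There were 2 RPS2 IP libraries and 2 total RNA libraries, and the methods state that total RNA was set aside before the pulldown. All libraries came from wild-type (WT) cultures, which the methods describe as dissociated cortices of E18 C57BL/6J embryos, with no age in culture given for eCLIP. The labels name rRNA depletion as the treatment in RPS2 IP only and list total RNA as untreated. The methods place depletion after library preparation and do not say which libraries received it. As labelled, that step and the pulldown cannot be told apart. The sources used here do not say that the libraries of a group came from separate cultures or embryos, and p-values then measure only the spread between these libraries.

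Library totals ran from 4899718 to 16460545 counts, of which Gm42418 took between 15.3% and 42.6% and the 57 protocadherin genes together between 0.115% and 0.151%. All 8 neuron markers were counted in every library, with a summed level between 4058 and 4584 CPM, which are counts scaled to the library size. The 6 astrocyte markers summed to between 484 and 1839 CPM and stood far apart between the replicates, as described below. The 5 microglia markers stayed at or under 25.8 CPM in sum, the 6 of the oligodendrocyte lineage at or under 66.5, the 4 of fibroblasts and meninges at or under 21.8, and the 4 endothelial markers at or under 2.81, with Cldn5 at 0. In such bulk samples fewer cells of a type and less RNA per cell cannot be told apart.

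What the counts can see differs between the clusters. A read that fell in an exon of several genes was not counted, so the constant exons are missing from every alpha and gamma value, and each value measures the isoform's own exon. A median of 2860 bases of an alpha gene and 2119 bases of a gamma gene were shared with another gene and therefore dropped, while 20 of the 22 beta genes shared none. The bases left to be counted had a median length of 2479.5 in the alpha cluster, 3714 in the beta cluster and 2637 in the gamma cluster. Levels below are CPM per kilobase of these unshared bases.

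Pcdha4 and Pcdhb1 were the members that failed the low-count filter. Pcdha4 kept only 494 of its 5768 exonic bases, because 2410 bases of its exons are also annotated to the overlapping gene Gm42416 and 2860 are constant, and it received 3 counts in all. Its value therefore says little about the isoform. Pcdhb1 kept all of its 2588 bases and had 0 counts in each library, where the floor of 3 counts corresponds to between 0.0837 and 0.258 CPM per kilobase. The other 55 genes were counted in each of the 4 libraries.

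Similar sequence among the isoforms also limits the counts, since a read that aligned equally well to several loci was not counted. Windows of 50 bases were taken along the counted bases of each gene and looked up in the counted bases of all other members. In the alternate alpha genes a median of 13.5% of windows occurred in another member, with 25.3% for Pcdha7 as the highest share. Beta genes had a median of 3.48% with a highest share of 11.99% in Pcdhb12. The alternate gamma genes divided by subfamily, with a median of 0.295% in the 12 Pcdhga genes and 8.18% in the 6 Pcdhgb genes. No such window was shared by any of the 5 C-type genes, so levels of alternate alpha and Pcdhgb genes are the more uncertain ones.

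**Figure D1:**
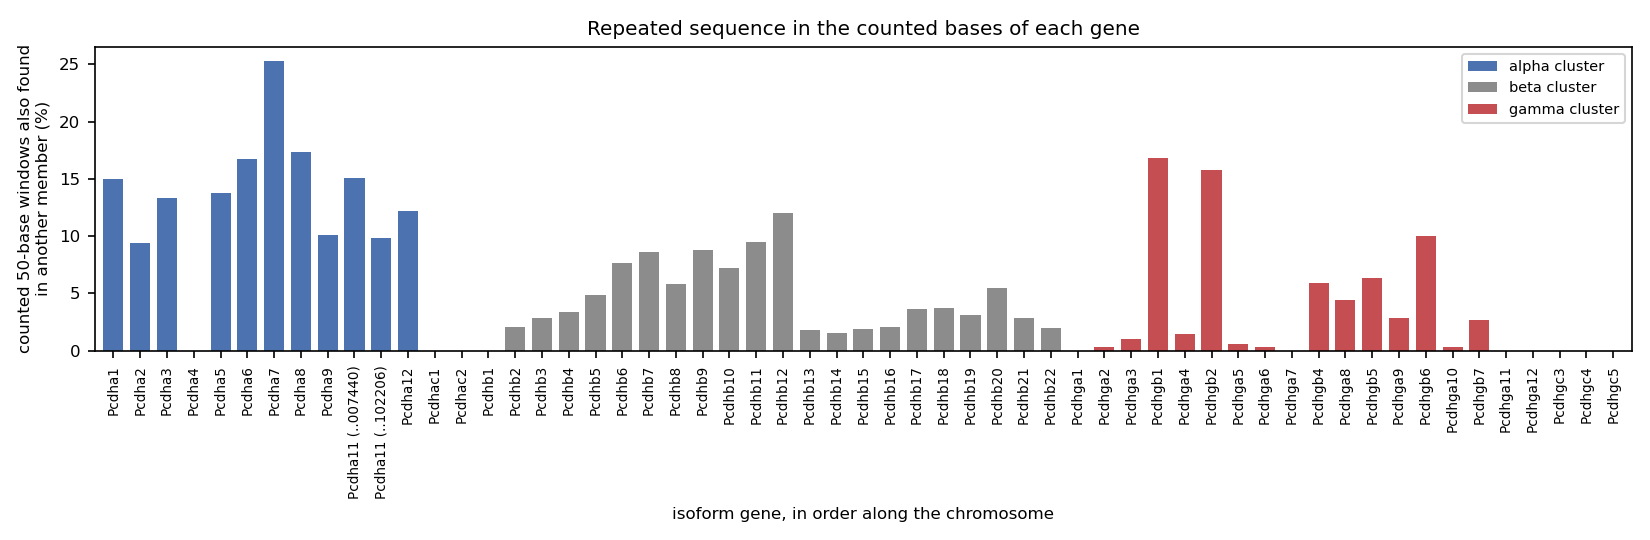
Bars give, for each of the 57 genes in order along the chromosome, the percentage of 50-base windows of its counted bases that also occur in another member. Alternate alpha genes reach 25.3% and the 5 C-type genes are at 0. Pcdha4, Pcdhb1, Pcdhga1, Pcdhga7, Pcdhga11 and Pcdhga12 are also at 0.

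The C-type genes were the most abundant isoforms in these cultures, with the exception of Pcdhac1. Together the 5 genes made up between 46.3% and 49.5% of the summed level of all members. Pcdhgc3, a gamma C-type isoform, had the highest level of all 57 genes, at 108 and 59.3 CPM per kilobase in RPS2 IP replicates 1 and 2 and 90.4 and 57.2 in total RNA. Its lowest library was above the highest library of the next gamma gene, and in both assays replicate 1 was the higher one. Its range over the libraries overlapped that of the alpha gene Pcdhac2, which reached 58.1, though within each library Pcdhgc3 was above Pcdhac2.

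Pcdhac2, the C-type isoform nearest to the alpha constant exons, followed at 44.4 and 58.1 CPM per kilobase in RPS2 IP and 41.9 and 52.9 in total RNA. It alone accounted for between 42.3% and 53.6% of the summed alpha level, and here replicate 2 was the higher one in both assays. Pcdhgc5 lay at 48.3 and 49.1 in RPS2 IP and 37.2 and 48.0 in total RNA. The ranges of Pcdhac2 and Pcdhgc5 overlapped, so these 2 genes were not separated by level.

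Pcdhgc4, the third gamma C-type isoform, reached 19.6 and 16.9 CPM per kilobase in RPS2 IP and 17.3 and 16.6 in total RNA, a narrow range that overlapped neither Pcdhgc5 above it nor Pcdhga3 below it. Pcdhac1 stood apart from the other C-type genes with 2.28 and 3.92 in RPS2 IP and 2.26 and 3.08 in total RNA. Its level was within the range of the alternate alpha genes.

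Among the alternate alpha genes, levels averaged over the libraries spanned 12.2-fold. Pcdha12 was the highest at 15.9 and 11.99 CPM per kilobase in RPS2 IP and 11.1 and 8.62 in total RNA. Pcdha5 came next at 9.78 and 8.60 in RPS2 IP and 9.004 and 8.88 in total RNA. Every library of Pcdha5 lay above every library of Pcdha3, the gene after it. Pcdha8 was the lowest tested alpha gene, with 1.34 and 1.01 in RPS2 IP and 1.08 and 0.464 in total RNA, and the last of these rests on 7 counts. In the order of the 13 tested alpha genes, 9 of the 12 neighbouring pairs overlapped in their ranges over the libraries.

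Beta genes had the lowest median level of the clusters and the narrowest span. The 21 detected genes averaged between 0.651 and 3.32 CPM per kilobase, a 5.09-fold span. All 20 neighbouring pairs in their order overlapped in their ranges over the libraries. Within each library taken alone, Pcdhb7 was above Pcdhb15, the gene after it, and Pcdhb6 was above Pcdhb21. The highest were Pcdhb12 with 4.04 and 3.07 in RPS2 IP and 2.64 and 3.52 in total RNA, Pcdhb2 with 3.44 and 1.72 in RPS2 IP and 3.16 and 2.80 in total RNA, and Pcdhb9 with 3.09 and 1.88 in RPS2 IP and 2.69 and 3.12 in total RNA. For these 3 genes the IP and total RNA libraries overlapped. As a cluster, beta contributed between 7.83% and 9.57% of the summed level of all members, against 22.02% to 29.2% for alpha and 63.0% to 68.6% for gamma.

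Alternate gamma genes spanned 9.33-fold, from Pcdhgb5 at 1.47 CPM per kilobase to Pcdhga3 at 13.7, averaged over the libraries. Pcdhga3 had 13.8 and 14.8 in RPS2 IP and 14.6 and 11.5 in total RNA, and its range overlapped that of Pcdhga2 after it. The 12 Pcdhga genes had a median of 7.69 and the 6 Pcdhgb genes a median of 4.10. The Pcdhga and Pcdhgb ranges overlapped, from 2.42 to 13.7 and from 1.47 to 9.66, and the Pcdhgb values are those with more repeated windows. With the exonic length as the files list it in place of the unshared length, the median over genes, averaged over the libraries, was 1.55 for the 14 alpha genes and 3.86 for the gamma genes, against 3.62 and 7.21 with unshared length.

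**Figure D2:**
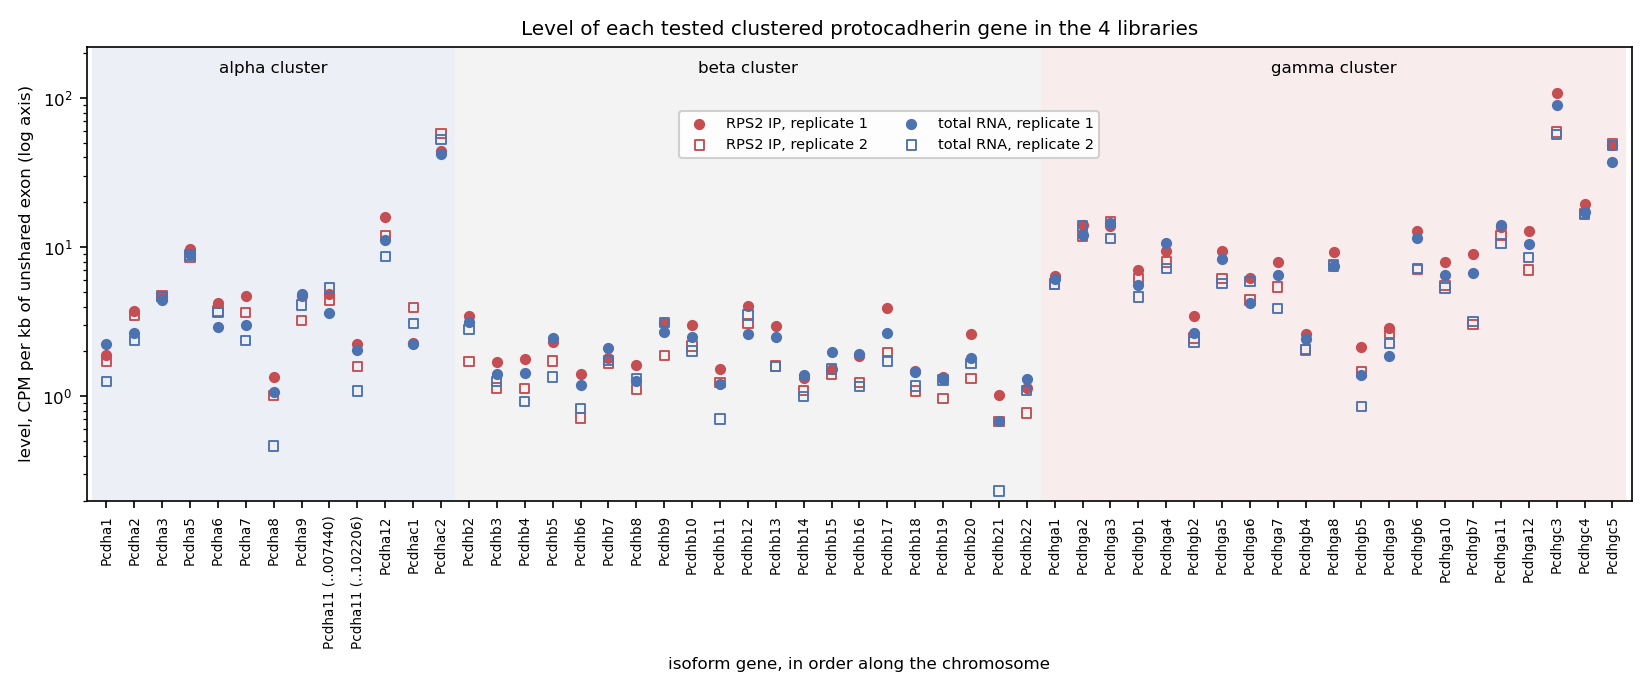
Points give the level of each of the 55 tested genes in the 4 libraries, in CPM per kilobase of unshared exon on a log axis, in order along the chromosome. Pcdhgc3, Pcdhac2 and Pcdhgc5 stand highest, beta genes lie between 0.232 and 4.04 in single libraries, and IP and total RNA points of a gene mostly sit together.

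Taken over all clusters together, levels of the members kept nearly the same order in all libraries. Across the 55 genes, which share their libraries, Pearson's r of log2 levels was 0.986 for replicate 1 and 0.968 for replicate 2 when the assays were compared, and 0.971 in RPS2 IP and 0.964 in total RNA when the replicates were compared. Within the beta cluster these r values were lower, from 0.81 between the assays in replicate 2 to 0.89 between the replicates in RPS2 IP. The non-clustered protocadherins, single genes elsewhere in the genome that encode related adhesion proteins, gave a scale for the levels. Over the 69 protocadherin genes of both kinds, Pcdhgc3 ranked first. Pcdh8, with libraries between 42.4 and 99.3, ranked second and overlapped Pcdhgc3, Pcdhac2 and Pcdhgc5.

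The replicates differed in the same direction in both assays for most isoforms. Of the 55 tested genes, 41 were higher in replicate 1 than in replicate 2 in both RPS2 IP and total RNA, and 4 were lower in both, whereas over all 12289 genes counted in every library the shares were 38.3% and 37.4%. Among the beta genes 18 of 21 were higher in replicate 1 in both assays and 0 were lower in both, with a median of 1.47-fold in RPS2 IP and 1.24-fold in total RNA. All 6 Pcdhgb genes were higher in replicate 1 in both assays. Pcdhgb7 showed 8.99 against 3.04 CPM per kilobase in RPS2 IP and 6.69 against 3.16 in total RNA, and thus was 2.95-fold and 2.11-fold higher.

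The C-type genes divided in this respect. Pcdhgc3 was 1.82-fold higher in replicate 1 in RPS2 IP and 1.58-fold higher in total RNA. Pcdhac1 was higher in replicate 2, by 1.72-fold and 1.36-fold, and Pcdhac2 likewise by 1.31-fold and 1.26-fold. Pcdhgc5 was at 1.02-fold in RPS2 IP and 1.29-fold in total RNA, replicate 2 over replicate 1. With 1 library for each replicate in each assay, these differences were not tested.

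Cell type markers moved with the replicates as well. All 6 astrocyte markers were higher in replicate 1 in both assays, and their sum was 3.64-fold higher in RPS2 IP and 3.14-fold higher in total RNA. Gfap, the glial intermediate filament, had 724 against 121 CPM in RPS2 IP and 677 against 114 in total RNA. The 5 microglia markers were also all higher in replicate 1, at 23.0 against 3.95 CPM in sum in RPS2 IP and 25.8 against 2.95 in total RNA. Of these, P2ry12, Tmem119 and Aif1 had only 2 to 6 counts per library in replicate 1 and 0 in replicate 2. The sum over the fibroblast and meninges markers was 5.39-fold and 4.15-fold higher, with 2 of 4 markers higher in replicate 1 in both assays. Dcn was at 0.226-fold in total RNA, replicate 1 over replicate 2. The neuron markers summed to 1.02-fold in RPS2 IP and 0.885-fold in total RNA, replicate 1 over replicate 2, with 2 of 8 higher in replicate 1 in both. Oligodendrocyte lineage markers had ratios of 1.19 and 1.27, with 4 of 6 higher in replicate 1 in both. Endothelial markers had 2.62 and 0.948 at near-zero levels, with 1 of 4 higher in both. The part of these cell types in the levels of the isoforms was not tested.

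**Figure D3:**
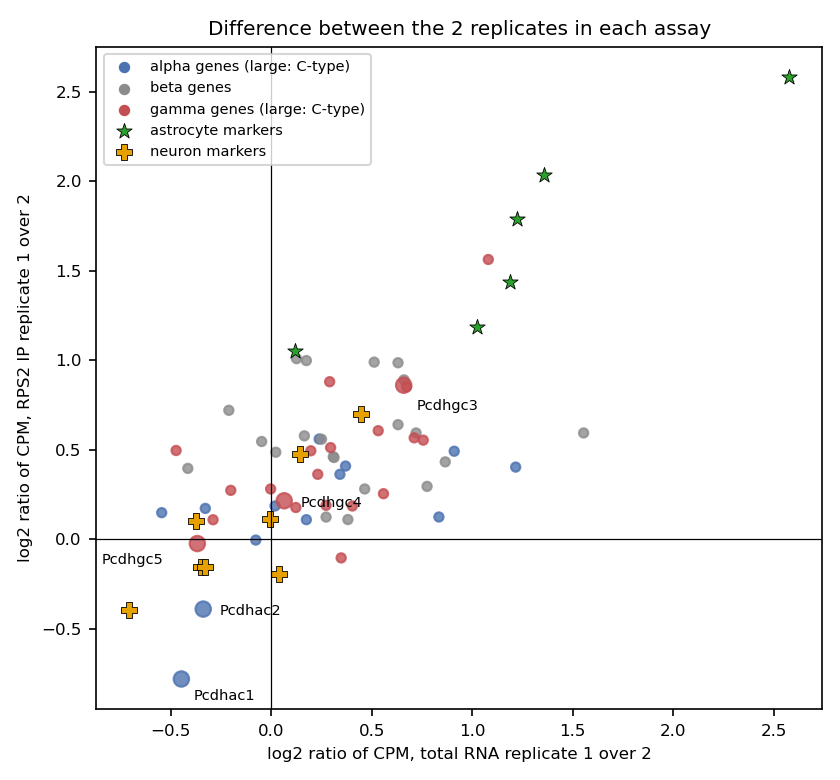
Each point is a gene, with the log2 ratio of CPM of replicate 1 over replicate 2 in total RNA on the horizontal axis and in RPS2 IP on the vertical axis. The astrocyte markers and most protocadherin genes lie above 0 on both axes, whereas Pcdhac1, Pcdhac2, Pcdhgc5 and Pcdha3 lie below 0 on both.

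RPS2 IP over total RNA compares fragments pulled down with RPS2 against total RNA on the counted bases of each isoform, relative to other genes. For alpha and gamma genes these bases leave out the constant exons, so the ratio does not cover the whole mRNA. Few isoforms were called different between the assays, which does not show that the others were alike. In edgeR's quasi-likelihood test with the replicate number as a block, 1 of the 55 tested genes, Pcdha12, was higher in IP at an adjusted p under 0.05, against 6.63% of all 12336 genes tested. In the other direction 0 genes were lower, against 7.55% of all genes, and 0 were lower at an unadjusted p under 0.05. By DESeq2 with the same block 0 members were called in either direction at an adjusted or unadjusted p under 0.05. No adjusted p was given there to 46 of the 55. Over all 12336 genes DESeq2 called 158 higher and 382 lower, with 485 and 826 at an unadjusted p under 0.05. It gave no adjusted p to 7653 of them. Without the block 0 members and 0 of all genes were called, so every call rests on the pairing by number.

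Pcdha12 had higher levels in both IP libraries than in both total RNA libraries, at 15.9 and 11.99 against 11.1 and 8.62 CPM per kilobase. Its log2 fold change was 0.50 ± 0.15 (SE, n = 2 pairs, edgeR adjusted p = 0.00954), with log2 ratios of 0.51 in replicate 1 and 0.47 in replicate 2. Here and below the edgeR SE reflects spread pooled over genes, and not how far the 2 pairs of a gene differ. The call did not hold with library size as the only scaling (log2 fold change 0.41, adjusted p = 0.0939) or with an offset for GC content and length (0.25, adjusted p = 0.363). In the counted bases of Pcdha12, 12.2% of 50-base windows occurred in another member.

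At an unadjusted p under 0.05, 6 members were higher in IP, among 12.9% of all genes, and 0 were lower, among 13.2%. These were the alpha genes Pcdha7 and Pcdha12, the beta gene Pcdhb21 and the gamma genes Pcdhga7, Pcdhgb5 and Pcdhgc5. Both IP libraries exceeded both total RNA libraries in 11 of the 55 genes, 5 of them alpha, 1 beta and 5 gamma, against 16.9% of all genes. Both were below in 1 gene, Pcdhb15, against 14.9% of all genes. The sign was the same in both replicates for 31 of the 55 genes, against 66.5% of all genes. The log2 ratio was above 0 in both replicates for 27 of them, against 34.3% of all genes, and below 0 in both for 4, against 32.2%.

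Fold changes leaned to one side by a small amount. They were positive for 45 of the 55 members, against 51.3% of all genes, with a median log2 fold change of 0.12 beside 0.011 over all genes. By cluster 12 of 13 alpha genes, 14 of 21 beta genes and 19 of 21 gamma genes were positive, with medians of 0.21, 0.048 and 0.14. The replicates alone gave medians of 0.25 and 0.036. The lean was not kept in every setting. Without RPS2 IP replicate 1 (no block), 19 of 55 were positive at a median of -0.061, and without RPS2 IP replicate 2, 50 of 55 at 0.31. Without total RNA replicate 2 it was 30 of 55. With the GC and length offset 25 of the 55 were positive and the medians were -0.045, -0.13 and 0.042. With library size alone 31 of 55 were positive, at a median of -0.073 over all genes, and after thinning to the smallest library 36 of 55.

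The extremes of each cluster were mostly genes with few counts. Pcdhb21 had the largest log2 fold change, 0.96 ± 0.47 (SE, edgeR adjusted p = 0.166), at levels of 1.02 and 0.675 in RPS2 IP and 0.680 and 0.232 in total RNA, the last from 6 counts. Its IP and total RNA libraries overlapped, and the value was 0.32 without total RNA replicate 2 and 1.86 without total RNA replicate 1. Pcdhb22, which shares 455 exonic bases with Pcdhb21, had the lowest, -0.34 ± 0.30 (adjusted p = 0.506 by edgeR), at 1.14 and 0.772 in RPS2 IP and 1.30 and 1.09 in total RNA. These neighbours therefore stood at opposite ends of the beta cluster without either passing the test.

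In the alpha cluster Pcdha8 had a log2 fold change of 0.66 ± 0.49 and Pcdha9 of -0.18 ± 0.24, and neither passed (edgeR adjusted p = 0.421 and 0.682). Without total RNA replicate 2 the value of Pcdha8 was 0.13, and without total RNA replicate 1 it was 1.34. Pcdha9 lay at 4.74 and 3.22 CPM per kilobase in RPS2 IP and 4.84 and 4.10 in total RNA, with overlapping groups. In the gamma cluster Pcdhgb5 was at 2.16 and 1.46 in RPS2 IP against 1.40 and 0.854 in total RNA, so that both IP libraries were higher. Its log2 fold change of 0.69 ± 0.30 did not pass after adjustment (edgeR adjusted p = 0.104). Pcdhga4, the lowest of the gamma genes by fold change at -0.019 ± 0.21, had 9.47 and 7.94 in RPS2 IP and 10.6 and 7.21 in total RNA.

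For the abundant C-type genes the intervals of the fold change were narrow in the blocked edgeR fit. The log2 fold change was 0.15 for Pcdhgc3 (95% interval -0.040 to 0.35), 0.11 for Pcdhac2 (-0.090 to 0.31), 0.10 for Pcdhgc4 (-0.13 to 0.33) and 0.20 for Pcdhgc5 (0.0069 to 0.39), while Pcdhac1 with fewer counts was at 0.21 (-0.35 to 0.76). None of these 5 passed the adjusted threshold in edgeR, and Pcdhgc5 passed with the GC and length offset (0.31, adjusted p = 0.036). Without RPS2 IP replicate 1 (no block), the value of Pcdhgc3 fell below its interval. In the blocked edgeR fit, 49 of all 55 tested genes had an interval that excluded a 2-fold difference in either direction. For 15 the interval lay within 0.5 on the log2 scale, and 12 of these were gamma, 3 alpha and 0 beta genes. DESeq2 with the same block gave larger SEs for genes with few counts, so these counts hold for the edgeR fit only. Its SE was 0.46 against 0.27 in edgeR for Pcdhb2, and 0.63 against 0.39 for Pcdhb6. Among high alternate genes, Pcdha5 was at 0.035 ± 0.16. The high beta genes were less precise, with 0.19 ± 0.24 for Pcdhb12 and intervals of -0.80 to 0.27 for Pcdhb2 and -0.79 to 0.26 for Pcdhb9.

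**Figure D4:**
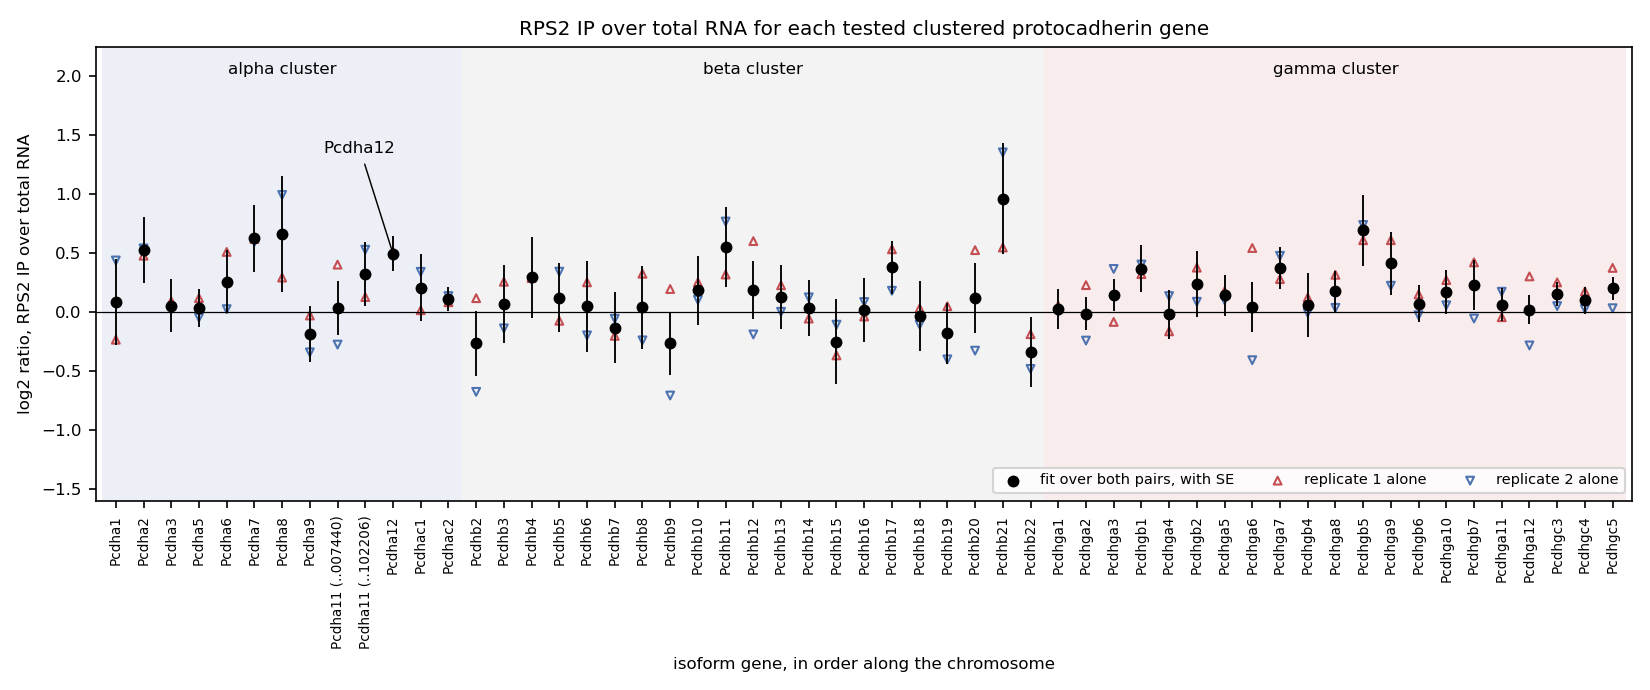
Black points give the log2 ratio of RPS2 IP over total RNA from the fit over both replicates, with bars of 1 SE, and open triangles give each replicate alone, for the 55 tested genes in order along the chromosome. Pcdha12 at 0.50 passed the test, and the others run from -0.34 to 0.96.

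Summed over a cluster, counts gave a ratio for each replicate. The alpha sum had a log2 ratio of 0.19 in replicate 1 (exact 95% binomial interval 0.091 to 0.28) and 0.16 in replicate 2 (0.075 to 0.24), with overlapping intervals. With library size only the alpha values were 0.17 and 0.011, and the median over the 13 tested alpha genes was 0.13 in replicate 1 and 0.34 in replicate 2. The beta sum had 0.18 (0.061 to 0.31) and -0.085 (-0.21 to 0.045), with opposite signs and intervals that did not overlap. The gamma sum had 0.26 (0.21 to 0.31) and 0.045 (-0.0048 to 0.095), and these intervals did not overlap either. Intervals and floors cover counting error only, and they treat reads as independent molecules. The methods for eCLIP do not mention removal of duplicate reads. With 1 pair of libraries for each replicate, the difference between the replicates was not tested.

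Some single genes differed in sign between the replicates as well. Pcdhb9 had log2 ratios of 0.20 in replicate 1 and -0.71 in replicate 2, Pcdhb2 had 0.12 and -0.68, and Pcdhga6 had 0.54 and -0.41. Across the 55 genes, which share all libraries, the log2 ratios of the replicates had a Pearson's r of 0.22, as a description, and across all tested genes r was 0.37. The astrocyte markers, higher in replicate 1, had a median log2 ratio of 0.46 in replicate 1 and 0.090 in replicate 2. Of these, 2 of 5 tested, Slc1a3 and Aqp4, were higher in IP, against 6.63% of all genes. The neuron markers had medians of 0.17 and -0.056, with 1 of 8 higher, Snap25. Medians were lower in replicate 1 for markers of the oligodendrocyte lineage (0.096 and 0.16), microglia (-0.055 and 0.98) and fibroblasts and meninges (-0.49 and -0.019). Only 2 genes were tested in each of the last 2 lists. The part of these cell types in the ratios of the protocadherins was not tested.

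**Figure D5:**
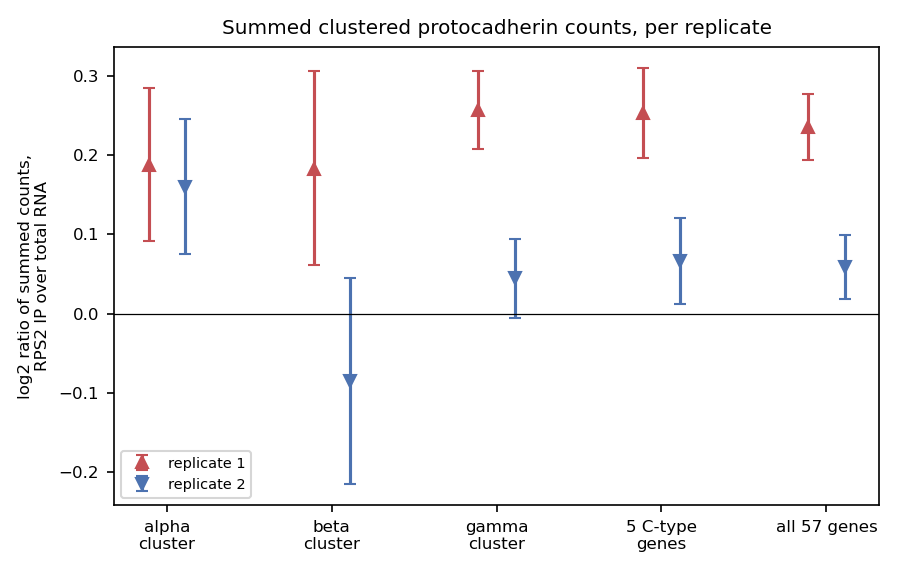
Triangles give the log2 ratio of summed counts, RPS2 IP over total RNA, for each cluster, the 5 C-type genes and all 57 genes, in replicate 1 and replicate 2, with exact 95% binomial intervals. The alpha replicates overlap, while the beta, gamma and total sums are higher in replicate 1 than in replicate 2.

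The other genes of the pathway were taken from lists. Of 12 non-clustered protocadherins, 11 were tested, Pcdh12 was at 0 counts in all libraries, 0 were higher in IP and 4 were lower, against 6.63% and 7.55% of all genes, with a median log2 fold change of -0.14. Pcdh1 fell by 0.39 on the log2 scale (SE 0.10, edgeR adjusted p = 0.00156), with 323 and 302 CPM in RPS2 IP against 423 and 394 in total RNA, so the groups did not overlap. By DESeq2 with the block 1 of the 11 was lower and 0 were higher, beside 382 lower and 158 higher of all 12336 genes. By either tool 0 of the 11 were higher at an unadjusted p under 0.05. Pcdh15, a protein of hair cell tip links, fell by 0.40 and Pcdh10 by 0.29, and Pcdh8 fell by 0.28. The clustered genes had 0 lower calls of 55 beside these 4 of 11, and the difference between the lists was not tested. Alpha and gamma ratios leave out the constant exons and so cover only a part of each transcript. Many clustered genes had far fewer counts than Pcdh1, Pcdh8 and Pcdh10. A change of this size was outside the blocked edgeR interval of Pcdhgc3, Pcdhac2, Pcdhgc4 and Pcdhgc5.

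Of 19 genes for promoter choice and cluster regulation, 18 were tested, 0 were higher and 2 were lower, against 6.63% and 7.55% of all genes, with a median of -0.12. Wiz, a zinc finger protein that partners with histone methyltransferases, fell by 0.41 with 88.7 and 66.5 CPM in RPS2 IP and 116 and 90.1 in total RNA, lower in IP within each replicate. Dnmt1, the maintenance DNA methyltransferase, fell by 0.31. In edgeR and DESeq2 0 genes of this list were higher at an unadjusted p under 0.05. DESeq2 called 0 in either direction, beside 158 higher and 382 lower of all 12336 genes, with no adjusted p for 9 of the 18.

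Of 30 signalling and shedding partners, all were tested, 5 were higher and 1 was lower by edgeR and 3 and 1 by DESeq2, in which 9 got no adjusted p, with a median of 0.048. Over all genes edgeR called 6.63% higher and 7.55% lower, and DESeq2 called 158 higher and 382 lower of 12336. The higher ones were the small GTPases Rac1 (0.58) and Rhoa (0.58) and the WAVE complex subunits Abi2 (0.55), Brk1 (0.62) and Nckap1 (0.28). Other WAVE complex subunits on the list were not called, with Abi1 at 0.14, Wasf1 at 0.15, Wasf2 at -0.081, Wasf3 at -0.090, Cyfip1 at 0.015 and Cyfip2 at -0.18. Rac1 had 110 and 131 CPM in RPS2 IP against 73.8 and 87.8 in total RNA, and Abi2 had 97.4 and 108 against 65.6 and 74.5, with no overlap between the groups in either gene. Marcks, an actin-binding substrate of protein kinase C, fell by 0.44.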

How the data were processed

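The authors deposited raw read counts per gene for 2 RPS2 IP and 2 total RNA libraries, made with featureCounts 1.5.3 in stranded mode against an mm10 single-cell reference annotation, after trimming with cutadapt and end-to-end alignment with STAR. Reads at several loci or in several genes were not counted. The deposited files also list exonic length, and 31011 of 31053 identifiers matched a GENCODE M21 symbol. Members and lists were chosen with earlier results of these data known. Named were the C-type genes, the 3 highest members and the extreme fold changes of each cluster, called or zero-count members and up to 3 called genes per list; other genes named were chosen after their values were seen.

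Tests used edgeR 4.0.16 in R 4.3.3 (filterByExpr, TMM, two-sided quasi-likelihood test with the replicate number as a block, Benjamini-Hochberg adjustment over 12336 genes, threshold 0.05). CPM used the effective library size, and pair ratios a prior count of 2. The methods say that total RNA came from the samples used for the pulldown, though not that the numbers match; deviations of same-numbered libraries from their group means correlated at 0.73 over genes. Intervals of fold changes are 1.96 SE. The SE was derived from the F statistic of the test. The prior degrees of freedom were infinite, so SE and p rest on spread pooled over genes. The procedure was tested on simulated data. With the block it recovered 22 of 50 genes changed 1.5-fold and 48 of 50 changed 4-fold, with 3 false calls. The fit without the block recovered 0 of 50 at either size. Alternatives were no block, library size only, median-ratio factors, other count filters, DESeq2 1.42.0, a GC and length offset, thinning, a stricter threshold, each library left out and, chosen after seeing the data, removal of the most counted gene.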

Additional observations from a re-analysis of the deposited data

How the results depend on the processing

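The count of members higher in IP was 1 in the blocked fit. It was 0 with no replicate block, with library size only and by DESeq2. The count of lower members was 0 in every setting run on all 4 libraries. Over all genes, 0 were called higher with no block, 283 with library size only and 158 by DESeq2. Without the block 0 of 50 simulated 4-fold changes were recovered, so the 0 of that fit says nothing about the members. Leaving out a library removes the block, and a lone library is then assumed to vary like the other group. Pcdha12 had adjusted p between 0.00753 and 1.00 over 14 fits and passed in 6. The median log2 fold change of alpha genes was -0.045 with the GC and length offset. With a library left out, the beta median ran from -0.23 (without RPS2 IP replicate 1) to 0.30 (without RPS2 IP replicate 2) and the gamma median from -0.061 to 0.41 for the same 2. The alpha sum, 0.17 as the mean of both replicates, was 0.091 with library size only and 0.24 with totals that leave out the most counted gene. Median levels with exonic length as listed were 1.55 for alpha and 3.86 for gamma.

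Of 238 alternative values for the 16 named members, 205 kept direction and side of the threshold and 24 changed sign; the cause was not tested. Pcdha5 was -0.049 with library size only, -0.25 with the GC and length offset and -0.012 after thinning. With that offset Pcdhac1 was -0.067 and Pcdhac2 -0.045, and Pcdhga4 was 0.0037 with no low-count filter. Without RPS2 IP replicate 1, Pcdha5 was -0.056, Pcdhb12 -0.0067, Pcdhgc3 -0.32 and Pcdhgc4 -0.0066. Without RPS2 IP replicate 2, Pcdha9 was 0.076, Pcdhac1 -0.24, Pcdhac2 -0.11, Pcdhb2 0.20, Pcdhb9 0.077 and Pcdhga4 0.081. Without total RNA replicate 1, Pcdhac2 was -0.046 and Pcdhga4 0.27, and without total RNA replicate 2 Pcdhgc3 was -0.12. The replicates alone gave -0.046 to 0.12 for Pcdha5, -0.68 to 0.12 for Pcdhb2, -0.71 to 0.20 for Pcdhb9, -0.19 to 0.60 for Pcdhb12 and -0.16 to 0.14 for Pcdhga4. The median SE was 0.30 for beta, 0.27 for alpha, 0.18 for gamma and 0.10 for C-type genes.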
